A study of Mus musculus with 2 samples.

Results

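Mir183, Mir96 and Mir182 are the 3 microRNA (miRNA) genes of a single cluster on mouse chromosome 6, known as the sensory organ cluster. They were taken by gene symbol from 1973 miRNA gene rows, with earlier results of these data known, and each had 1 row. The libraries held RNA shorter than 30 nt from forebrain of B6NCrl embryos at day 15.5, males and females pooled and labelled healthy. Replicate 1 pooled 78 embryos and replicate 2 pooled 62 embryos, with the same donor identifier in the labels of both and no treatment, genotype or other tissue to compare with. Replicate 1 gave 4464927 counts on the sense strand of miRNA genes out of 11743597 reads, and replicate 2 gave 4753555 out of 13074292. In whole-forebrain RNA, fewer cells that make a miRNA and less of it per cell cannot be told apart.

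A miRNA is cut from a hairpin precursor and lowers the output of messenger RNAs that pair with its seed, bases 2 to 8. The Mir183, Mir96 and Mir182 hairpins are cut from a shared primary transcript. Their products are best known from photoreceptors, inner ear hair cells, olfactory neurons, sensory ganglion neurons and the pineal gland. Changes in the miR-96 seed cause hearing loss in mice and people, and in the retina the cluster's products rise and fall with light.

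The 5p arms, taken as the arms mainly used, are shown first because their seeds are alike but not the same. The sequences are from RefSeq, build GRCm38.p6, written 5′ to 3′ with the seed in capitals, and all 3 genes had an entry. The last line is mmu-miR-1271-5p, the other mature mouse miRNA of that table with the miR-96 seed.
mmu-miR-183-5p: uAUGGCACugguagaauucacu
mmu-miR-96-5p: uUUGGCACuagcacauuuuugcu
mmu-miR-182-5p: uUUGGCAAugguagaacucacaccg
mmu-miR-1271-5p: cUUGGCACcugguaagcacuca

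Counted from 1 at the 5′ end, the miR-183 and miR-96 seeds differ by A2U, and the miR-96 and miR-182 seeds by C8A. The miR-183 and miR-182 seeds differ at both places, A2U and C8A. Over the whole arms, seeds included, the likeness runs the other way. Read from the first base without gaps, miR-183-5p and miR-182-5p shared 18 of 22 bases, miR-183-5p and miR-96-5p shared 13 of 22, and miR-96-5p and miR-182-5p shared 12 of 23. No other mature miRNA of the table had the 7 seed bases of miR-183-5p or of miR-182-5p.

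The counts are per precursor, so the hairpins are the units measured. Their 5p and 3p arms are in capitals here to show what a count can hold, since reads of the arms were summed.
Mir183 hairpin: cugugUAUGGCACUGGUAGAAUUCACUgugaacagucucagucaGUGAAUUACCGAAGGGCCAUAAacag
Mir96 hairpin: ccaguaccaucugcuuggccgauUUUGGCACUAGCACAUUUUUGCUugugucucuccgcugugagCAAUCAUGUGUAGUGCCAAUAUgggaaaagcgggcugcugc
Mir182 hairpin: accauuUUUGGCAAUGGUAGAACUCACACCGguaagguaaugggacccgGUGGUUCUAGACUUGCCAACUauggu

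In mm10 coordinates the cluster covers 3820 nt of the minus strand of chromosome 6. Mir183 (ENSMUSG00000065619.2, 30169668 to 30169737, 70 nt) comes first in the direction of transcription. Mir96 (ENSMUSG00000065586.1, 30169446 to 30169551, 106 nt) follows after 116 nt, and Mir182 (ENSMUSG00000076361.1, 30165918 to 30165992, 75 nt) after a further 3453 nt. No other annotated gene of GENCODE M21 overlaps the cluster, so the precursors are intergenic in that annotation. Rncr4, a long noncoding RNA gene of the opposite strand, starts 3155 nt from Mir183, and the nearest protein-coding genes are Nrf1, 12459 nt from Mir182, and Ube2h, 41551 nt from Mir183. Neither the 6 arms nor their first 18 bases occurred in a transcript of another gene among 141767 transcripts of GENCODE M21, on either strand. Reads placed at more than 1 locus were 44.6% of replicate 1 and 42.4% of replicate 2 and stayed outside the gene rows. The genome itself was not searched, so how many such reads came from the cluster was not tested.

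The cluster was measured in both libraries and formed a small part of the forebrain's miRNA counts. Levels are normalised counts (CPM, scaled to 1000000 over the sense counts in gene rows of a library). The 3 genes together stood at 327 CPM in replicate 1 and 217 CPM in replicate 2, or 272 ± 77.7 CPM (SD, n = 2), which is 0.0272% of the counts. With a minimum of 10 counts per library, 370 of the 1973 rows were detected, and all 3 genes were among them.

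Mir182 was the highest of the cluster, with 761 counts in replicate 1 and 504 in replicate 2. That is 170 CPM (exact Poisson 95% interval 159 to 183) and 106 CPM (97.0 to 116), with a mean of 138 ± 45.5 CPM (SD, n = 2). It ranked 172 among all gene rows, and 53.5% of the detected genes lay below it. Mir182 is the last hairpin of the cluster and the farthest from the start of the transcript.

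Mir183, the first hairpin, had 527 and 412 counts. Its level was 118 CPM (108 to 129) in replicate 1 and 86.7 CPM (78.5 to 95.5) in replicate 2, with a mean of 102 ± 22.2 CPM (SD, n = 2). It ranked 189, close to the middle of the detected genes, of which 48.9% lay below it and whose median was 111 CPM.

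Mir96, between the other members and the one linked to hearing loss, was the lowest, with 171 and 115 counts. It stood at 38.3 CPM (32.8 to 44.5) in replicate 1 and 24.2 CPM (20.0 to 29.0) in replicate 2, with a mean of 31.2 ± 9.97 CPM (SD, n = 2). Its rank was 253, and 31.6% of the detected genes were below it. Mir99a, the most abundant gene row of these libraries, exceeded Mir182 by 2147-fold, Mir183 by 2900-fold and Mir96 by 9499-fold. These intervals cover counting error only, since the reads carry no molecular identifiers and may be copies of the same molecule.

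**Figure D1:**
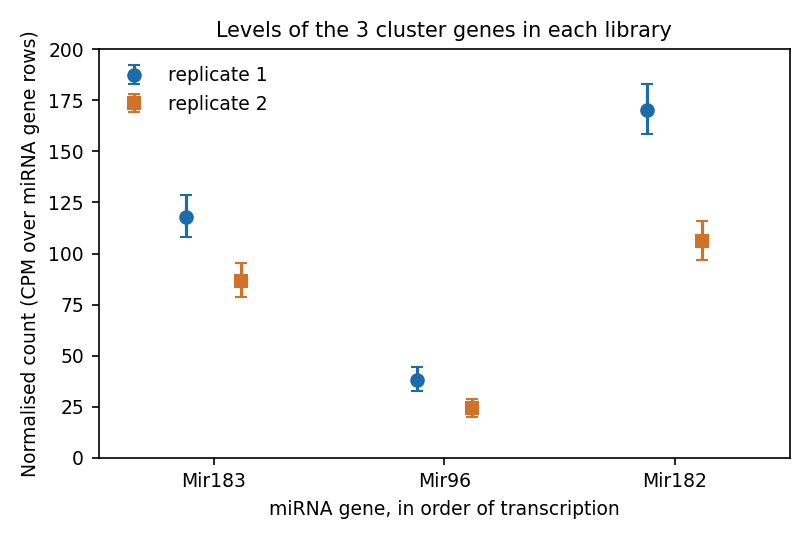
Normalised count (CPM, vertical axis) of Mir183, Mir96 and Mir182 (horizontal axis) in replicate 1 (circles) and replicate 2 (squares), with exact Poisson 95% intervals. For each gene the replicate 1 point lies above the replicate 2 point and the intervals do not overlap, from 170 against 106 CPM for Mir182 to 38.3 against 24.2 CPM for Mir96.

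The order of the levels was Mir182, Mir183, Mir96 in each library. Mir182 exceeded Mir183 by 1.44 times in counts in replicate 1 (Clopper-Pearson 95% interval 1.29 to 1.62) and by 1.22 times in replicate 2 (1.07 to 1.40). The means of Mir182 and Mir183 differed by less than the SD of Mir182, an SD that includes the lower level of both genes in replicate 2. Mir183 exceeded Mir96 by 3.08 times in replicate 1 (2.59 to 3.68) and by 3.58 times in replicate 2 (2.91 to 4.44), and the means of Mir96 and Mir183 differed by more than either SD. Per base of precursor the order was the same, with Mir182 above Mir183 by 1.35 and 1.14 times and Mir183 above Mir96 by 4.67 and 5.43 times. In counts, Mir183 and Mir96, 116 nt apart, differed by a larger ratio than Mir183 and the more distant Mir182. Any link between position and level was not tested.

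**Figure D2:**
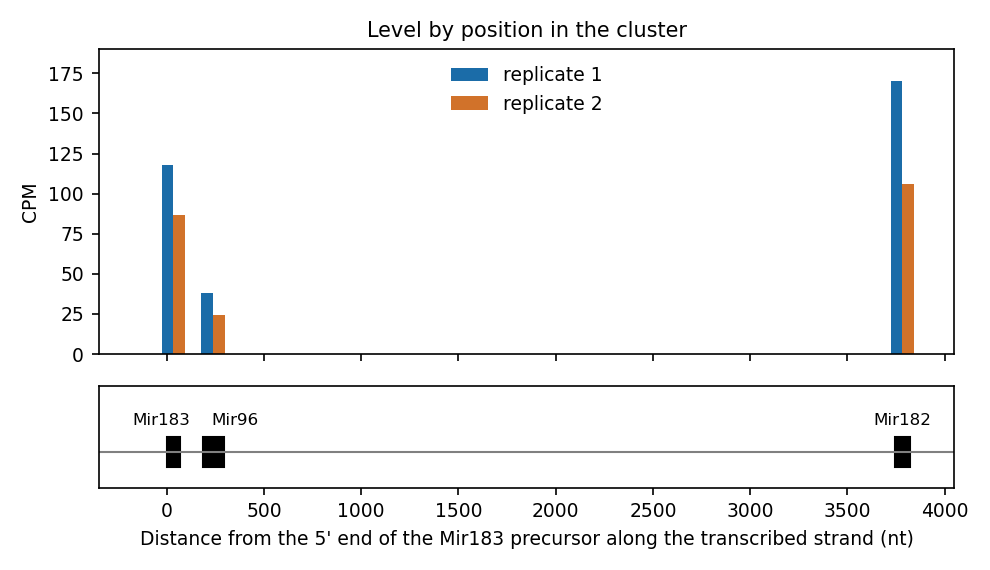
Level in CPM (upper panel, bars, replicate 1 left and replicate 2 right of each gene's centre) and position of the 3 precursors (lower panel, black boxes to scale) against the distance from the 5′ end of Mir183 along the transcribed strand, in nt. The low bars of Mir96 (38.3 and 24.2 CPM) stand beside those of Mir183 (118 and 86.7 CPM), while Mir182 lies a further 3453 nt away at 170 and 106 CPM.

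The makeup of the cluster was close in both libraries. Mir182 gave 52.2% of the cluster's 1459 counts in replicate 1 (Clopper-Pearson 95% interval 49.6 to 54.8) and 48.9% of 1031 counts in replicate 2 (45.8 to 52.0). Mir183 gave 36.1% (33.7 to 38.6) and 40.0% (37.0 to 43.0). Mir96 gave 11.7% (10.1 to 13.5) and 11.2% (9.30 to 13.2). The intervals of the libraries overlapped for each of the 3 genes, and a difference in makeup was not tested.

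**Figure D3:**
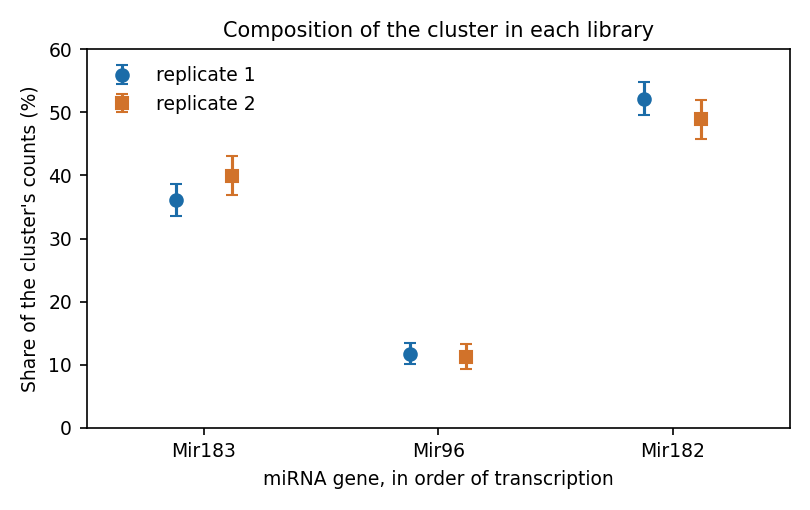
Share of the cluster's sense counts in percent (vertical axis) held by each gene (horizontal axis) in replicate 1 (circles) and replicate 2 (squares), with Clopper-Pearson 95% intervals. The intervals overlap within each gene, and Mir96 stays at 11.7% and 11.2%.

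The libraries differed in the level of the cluster, and all 3 genes were lower in replicate 2. Each ratio divides the level in replicate 2 by that in replicate 1 on the log2 scale, after 0.5 was added to both counts. The counts of each gene were compared in an exact binomial test, two-sided, with Benjamini-Hochberg adjustment over 457 genes. This compares 2 libraries of the same group beyond counting error, not conditions. Mir182 was lower at -0.68 on the log2 scale (95% interval -0.85 to -0.52; adjusted p = 6.49e-16, exact binomial test), Mir96 at -0.66 (-1.02 to -0.31; adjusted p = 0.000558) and Mir183 at -0.45 (-0.64 to -0.26; adjusted p = 1.05e-05). The intervals of the 3 genes overlapped, and whether their ratios differed from each other was not tested. For the cluster's summed counts the log2 ratio was -0.59.

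Against these 3 of 3 called genes stands a high background. Of the 457 genes tested, 36.3% were called in either direction and 17.1% were called lower in replicate 2 (adjusted p below 0.05). The calls were 88 higher and 78 lower, against 125 and 56 when the total omitted Mir99a and 68 and 109 when the total was all reads. The median log2 ratio was 0.05 over all tested genes and -0.66 over the 3 members, which lie in 1 transcript and are not independent.

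The differences were also set beside those of genes of like level. Of 77 other tested genes within 2-fold of the level of Mir182, 38 were called, 14 of them lower. An absolute log2 ratio at least as large as that of Mir182 was found in 5 of the 77, and 2 of these were lower in replicate 2. Of 66 such genes around Mir96, 11 were called, 2 of them lower, and 5 had an absolute ratio at least as large, 1 of them lower. Around Mir183, 29 of 72 were called, 8 of them lower, and 11 had an absolute ratio at least as large, 3 of them lower. The median absolute log2 ratio of these neighbours in level was 0.20, 0.19 and 0.19. The coefficient of variation between the libraries, estimated by edgeR over all genes with at least 10 counts, was 16.1%.

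**Figure D4:**
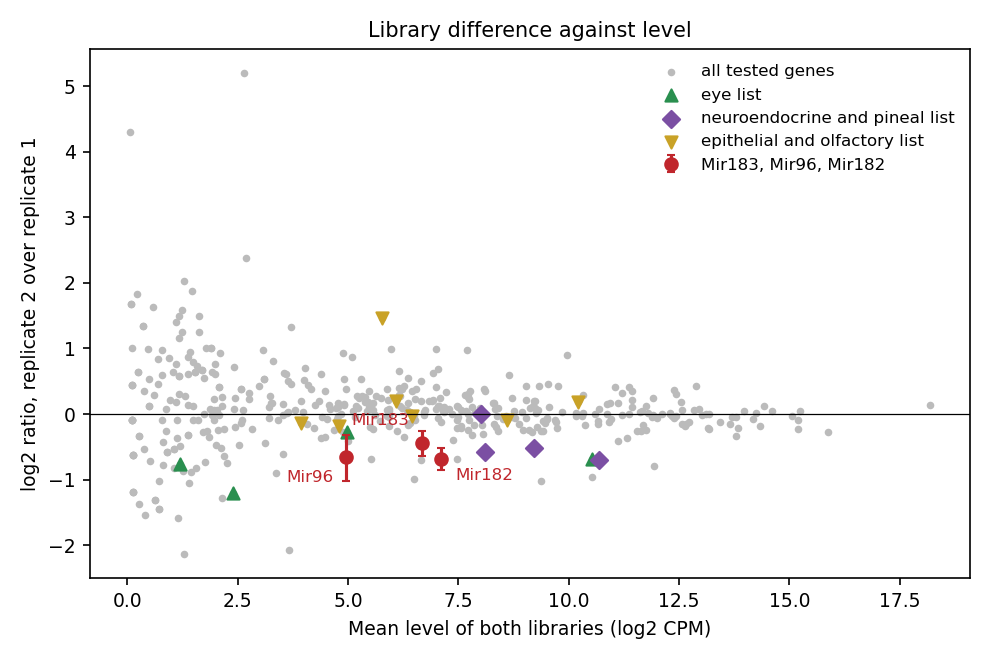
The log2 ratio of replicate 2 over replicate 1 (vertical axis) against the mean level in log2 CPM (horizontal axis) for the 457 tested genes (grey), with Mir183, Mir96 and Mir182 (red, 95% intervals for counting error) and the genes of 3 marker lists. The 3 red points lie at -0.45, -0.66 and -0.68, below 0. All 4 points of the eye list and of the neuroendocrine and pineal list also lie below 0. Mir7-2 lies just under 0, and above 0 when the total omitted Mir99a. Points of the epithelial and olfactory list lie on both sides of 0, with a median of -0.03.

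Other genes of sensory and related tissues were read from lists drawn up with earlier results of these libraries known, so their medians are a description and no independent support. The called genes of every list stand beside a background of 36.3% of the 457 tested genes called in either direction, with 17.1% called lower. The eye list held Mir204 and Mir211, which mark pigment epithelium and choroid plexus, Mir184, known from lens and cornea, and Mir31. It summed to 1867 CPM in replicate 1 and 1172 CPM in replicate 2, no member was at 0, and 2 of its 4 genes were called, both lower in replicate 2, with a median log2 ratio of -0.72 against 0.05 over all tested genes. Mir204 stood at 1822 and 1139 CPM (log2 ratio -0.68) and Mir211 at 7.39 and 3.16 CPM (log2 ratio -1.20, exact binomial test, adjusted p = 0.0172). Mir184, at 2.91 and 1.68 CPM, and Mir31, at 34.7 and 28.8 CPM, were not called.

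The neuroendocrine and pineal list, Mir375 and the Mir7 genes, summed to 3322 CPM in replicate 1 and 2216 CPM in replicate 2. No member was at 0, and 3 of its 4 genes were called, all lower in replicate 2, with a median log2 ratio of -0.55. Mir375, known from pancreatic islet and pituitary cells, stood at 328 and 219 CPM (log2 ratio -0.58), levels close to those of the whole Mir183 cluster. Mir7b stood at 2036 and 1249 CPM (log2 ratio -0.71) and Mir7-1 at 698 and 489 CPM (log2 ratio -0.51). Mir7-2 was not called, at 261 and 260 CPM. Mir7-1 and Mir7-2 share a mature sequence, so their rows are uncertain. The part of either list's cells in the lower level of Mir183, Mir96 and Mir182 was not tested.

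The epithelial and olfactory list did not move the same way. It summed to 1732 CPM in replicate 1 and 1917 CPM in replicate 2, no member was at 0, and 2 of 7 genes were called, both higher in replicate 2. Over all 457 tested genes 36.3% were called, so 2 of 7 is no excess of calls. They were Mir200a, at 28.9 and 80.2 CPM (log2 ratio 1.47), and Mir203, a skin epithelium miRNA, at 1103 and 1258 CPM (log2 ratio 0.19). Mir200b (log2 ratio -0.03), Mir200c (0.21), Mir141 (-0.13) and Mir205 (-0.18) were not called. Mir429 (log2 ratio -0.09) was not called either, but was called lower with TMM scaling, DESeq2 size factors and all reads as the total. The list's median log2 ratio was -0.03, and 0.03 when the total omitted Mir99a.

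The labelled tissue was checked against 14 forebrain neuron and progenitor genes, of which 13 had a row and 10 were detected. Their rows summed to 25491 and 25703 CPM, with the highest level in the Mir137 row. Reads placed at more than 1 locus stayed outside the rows, and the Mir9, Mir128 and Mir138 genes of the list are numbered copies. The levels of such copies may be incomplete, so the order of the genes within the list is uncertain. Of the 13 tested, 3 were called higher and 2 lower in replicate 2, with a median log2 ratio of -0.03. Members went opposite ways within that sum: Mir137 stood at 9747 and 8437 CPM, Mir92b at 4971 and 6123 CPM, and Mir153 at 1811 and 2414 CPM. The third gene called higher, Mir124a-3, had 0 and 10 counts, and the Mir124a rows, whose genes share a mature sequence, had at most 17 counts. When the total omitted Mir99a the calls were 4 and 1, with TMM scaling 3 and 6, and with all reads as the total 3 and 7. Of other tissues, the erythroid list held 140 and 165 CPM, with 1 of 3 genes called higher and none with TMM or DESeq2 scaling or all reads as the total. When the total omitted Mir99a, 2 of the erythroid genes were called higher. The liver list held 210 and 238 CPM, with 1 of 4 genes called higher. The muscle list held 61.4 and 53.6 CPM, with 1 of 3 tested genes called lower and Mir1a-1, Mir133a-1 and Mir133a-2 at 0. These last are numbered gene copies, and reads placed at more than 1 locus stayed outside the rows. Their 0 is therefore no evidence of absence.

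The seed relative of Mir96 was not seen. The row of Gm24195, the gene of miR-1271 (chromosome 13, mature arm at 54578152 to 54578173), had 0 counts in both libraries. A count of 0 allows up to 3 counts, which is 0.672 CPM in the first library and 0.631 CPM in the second. Of the 2 genes with the miR-96 seed, Mir96 alone had counts.

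Within 1 Mb of the cluster lie 5 other miRNA gene rows. Mir335, an imprinted miRNA 572 kb away, stood at 40178 and 34401 CPM and was called lower in replicate 2 (log2 ratio -0.22). Mir29a, 893 kb away, stood at 245 and 263 CPM and was not called, although it was called higher when the total omitted Mir99a. Its neighbour Mir29b-1, with 12 and 9 counts and a log2 ratio of -0.49, was not called. Mir29b-1 is a numbered gene copy, and reads placed at more than 1 locus stayed outside its row, so its counts may be incomplete. Gm26220 had 1 and 0 counts and Gm23049 had 0 in both, too few to test. None of the 5 was called with a log2 ratio as low as that of Mir183.

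The genes nearest to each member in level over both libraries were found by the distance between log2(CPM + 1) values over 2 samples. Nearest to Mir183 were Mir383 (distance 0.19) on chromosome 8, at 124 and 76.8 CPM with a log2 ratio of -0.69, and Mir222 (distance 0.31) on chromosome X, at 105 and 105 CPM. Nearest to Mir96 were Mir217 (distance 0.18), at 36.5 and 27.3 CPM, and Mir3072 (distance 0.27), at 32.7 and 26.9 CPM. Nearest to Mir182 were Mir669l (distance 0.40), at 144 and 132 CPM, and Mir455 (distance 0.44), at 135 and 130 CPM. Mir383 was called lower, as was Mir217 (log2 ratio -0.42, exact binomial test, adjusted p = 0.0395), which lost its call when the total omitted Mir99a. The remaining 4 were not called, and a likeness over 2 samples reflects mostly the level.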

How the data were processed

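The authors deposited, for each library, whole-number read counts per miRNA gene with no normalization: a column for either strand and a column for each strand. Per the deposited README text, the counts came from alignments to mm10 with GENCODE annotation M4. Neither the aligner nor the counter is named in the sources used here. Sense was the first strand column, which also had the larger sum in each library. Rows that name no gene (multi-mapping, unmapped at 14.3% and 18.2%, no feature at 3.03% and 3.07%, ambiguous at 0) stayed out of totals and tests. Capture and amplification differ between miRNA sequences, so CPM ratios between genes are not molar ratios.

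Symbols and coordinates came from GENCODE M21, also mm10, by identifier, with 1894 of 1973 rows matched, and sequences from RefSeq (GRCm38.p6). Genes with at least 10 sense counts in total were tested with scipy 1.17.1. The test was tried on simulated counts with known changes and counting error only. That trial cannot show how the test behaves with spread between replicates. There is 1 group, so no quasi-likelihood test was run. The labels call the libraries biological replicates, and their spread may be partly technical. TMM factors and dispersion came from edgeR 4.0.16 and size factors from DESeq2 1.42.0, in R 4.3.3. Intervals are at 95%, and the floor was 3 counts.

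The members and lists were chosen with earlier results of these data known. The rule for named genes took the members, genes with the 5p seed of a member, rows within 1 Mb, the listed genes, the 2 nearest detected genes per member and Mir99a. Alternatives were other scalings, strand columns, count minimums, added counts, precursor length and single libraries.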

Additional observations from a re-analysis of the deposited data

Results flagged for a closer look

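Counts on the strand opposite to the precursors, which the levels above do not use, passed the 3 counts taken as the limit of a 0 in 2 cases. Mir183 had 9 opposite-strand counts in replicate 2, beside 412 sense counts, and 3 in replicate 1. Mir182 had 4 opposite-strand counts in replicate 1, beside 761 sense counts, and 3 in replicate 2. Mir96 had 0 in both libraries. There are no control samples to compare these counts with.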

How the results depend on the processing

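Each of the 3 genes remained called lower in replicate 2 under all 7 alternatives that enter the test: TMM factors, DESeq2 size factors, the total without Mir99a, all reads as the total, counts on either strand, and minimums of 100 and of 1 count. Adding 0 or 5 counts alters the ratio but not the test. Over these 9 settings and the reported one, the log2 ratios ran from -0.75 to -0.62 for Mir182, from -0.73 to -0.60 for Mir96 and from -0.51 to -0.39 for Mir183, with adjusted p by the exact binomial test of at most 1.8e-13, 0.00164 and 0.000193. The number of genes called over all rows stayed between 156 and 181. The cluster level of 272 CPM became 385 CPM without Mir99a in the total and 102 CPM with all reads as the total, by construction, and it was 217 to 327 CPM with a single library. Per base of precursor, Mir96 held 8.14% and Mir183 41.0% of the cluster in place of 11.4% and 38.0%. No paired analysis was possible because there is only 1 group. Leaving out a library leaves no ratio to test. With 2 libraries, none of the differences has a replicate check, and the 115 counts of Mir96 in replicate 2 gave the widest interval of the 3 genes.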

Other observations

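The other genes that were lower in replicate 2 by as much as the cluster were listed after values were seen. Of 300 tested genes with a mean of at least 10 CPM, 16 were called with a log2 ratio of -0.45 or lower, the 3 cluster genes and 13 others. Among the others were Mir34c (886 and 436 CPM, log2 ratio -1.02) and Mir449a (4925 and 2839 CPM, log2 ratio -0.79). Of their family, Mir449b (28 and 12 counts), below 10 CPM, was also called lower, while Mir34a (log2 ratio -0.10), Mir34b (log2 ratio -0.25) and Mir449c (log2 ratio -0.14) were not called. Also among them were Mir1298 (1946 and 1004 CPM, log2 ratio -0.96), Mir1264 (120 and 60.4 CPM, log2 ratio -0.99) and Mir448 (217 and 135 CPM, log2 ratio -0.68). These 3 lie in the Htr2c gene, whose other miRNA rows, Mir1912 (17 and 10 counts) and Mir764 (6 and 5 counts), were not called. Mir206, a skeletal muscle miRNA, showed the lowest ratio of the 16 at -2.07 (20.6 and 4.84 CPM), and Mir216a stood at 13.4 and 7.15 CPM (log2 ratio -0.90). Gm23935 stood at 56.7 and 35.3 CPM (log2 ratio -0.68). Mir383, Mir204, Mir7b, Mir375 and Mir7-1, whose values are given above, were the remaining 5. The part of any of these genes' cells in the level of the cluster was not tested.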
